A study of Mus musculus with 12 samples.

Results

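The interferon-inducible GTPases described here are 10 genes of the 21853 in the deposited expression table: the guanylate-binding protein genes Gbp2, Gbp3, Gbp4, Gbp5 and Gbp7, and the immunity-related GTPase genes Irgm1, Irgm2, Igtp, Iigp1 and Tgtp2. The rule names them as members of these families and uses no threshold on their values, but earlier results of these data were known when they were chosen. RNA of whole bone marrow cells from B6 mice was sequenced in 4 groups of 3 libraries. Control mice were not irradiated and no dosing is stated for them. TBI mice received 5 Gy of total body irradiation with gamma rays at 0.66 Gy/min and were gavaged with the vehicle, 100 µL of olive oil. TBI+DEIX mice received the same irradiation and oral DEIX, and DEIX mice received DEIX without irradiation. DEIX, for which the series title names the bacterial carotenoid deinoxanthin, was given once a day for 14 days at 25 mg/kg, and marrow was taken 14 days after irradiation. The age and sex of the mice are not given, and because no vehicle is stated for the control mice, dosing itself and the treatments cannot be told apart in comparisons with control.

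Interferon-inducible GTPases are effectors of cell-autonomous immunity. Interferon gamma binds its receptor, signals through the kinases Jak1 and Jak2, and switches on these genes through gamma-activated sites and, by way of Irf1, through interferon-stimulated response elements; type I interferon acts on the second kind of element with the help of Irf9. Guanylate-binding proteins assemble on pathogen vacuoles and on bacteria in the cytosol and help to open them to inflammasome sensors. The immunity-related GTPases divide into effectors such as Iigp1 and Tgtp2, which load onto pathogen vacuoles and disrupt them, and the regulators Irgm1, Irgm2 and Igtp, which sit on the cell's own membranes and keep the effectors inactive there. In bone marrow, Irgm1 is also known for its part in the response of blood stem cells to interferon.

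The members lie in a few regions of the mouse genome (mm10, coordinates of GENCODE release M21). Gbp5 (chr3:142493978-142522344), Gbp7 (chr3:142530342-142550149), Gbp3 (chr3:142560026-142573209) and Gbp2 (chr3:142620602-142638008) are neighbours on the plus strand of chromosome 3. Gbp4 (chr5:105115767-105139586) is in the family's other cluster, on the minus strand of chromosome 5. Irgm1 (chr11:48861968-48871683) and Tgtp2 (chr11:49057194-49064206) are on the minus strand of chromosome 11, and Igtp (chr11:58199556-58207591) and Irgm2 (chr11:58199618-58222782) on its plus strand. Some of these gene models share sequence. The Tgtp2 transcript aligned to that of Tgtp1 over its whole length at 99.8% identity. The models of Igtp and Irgm2 overlap on the same strand over 7974 bases, and that of Gbp4 overlaps Gbp8 and Gbp9 on the same strand. The estimates of Tgtp2, Igtp, Irgm2 and Gbp4 are uncertain to the extent that reads could not be divided between these genes. Tgtp2 also overlaps Olfr56 on the other strand over 7013 bases, and whether counting used the strand is not stated; Olfr56 did not exceed 0.360 FPKM in any library.

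The promoters are shown because matches to interferon elements can be read in them, though not both kinds in each. RefSeq windows from 250 bases before to 50 bases after a gene's start (GRCm38.p6) were on hand for 8 members. They make 9 windows, since Gbp3 has a pair of starts, and no window was on hand for Gbp4 and Iigp1. RefSeq's starts need not be those of the GENCODE models whose FPKM is reported. That of Irgm2 (position 58214977) lies inside its GENCODE model, which begins at 58199618, just after the start of Igtp at 58199556, so the Igtp window also lies directly before the start of the Irgm2 model. The RefSeq start of Gbp5 (142496934) likewise lies inside its GENCODE model. An interferon-stimulated response element was searched as GAAA, any 2 bases, GAAA, and a gamma-activated site as TTC, any 3 bases, GAA, both on either strand. The 100 bases before the start are printed 5′ to 3′ on the gene's strand for 7 members, with every match in capitals; adjoining or overlapping matches run together, and the first 3 capitals of Gbp7 end a gamma-activated site match that begins before the stretch.
Irgm2 (chr11:58214877-58214976, plus strand): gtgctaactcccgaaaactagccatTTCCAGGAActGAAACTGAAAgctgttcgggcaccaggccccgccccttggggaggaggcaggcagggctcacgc
Igtp (chr11:58199456-58199555, plus strand): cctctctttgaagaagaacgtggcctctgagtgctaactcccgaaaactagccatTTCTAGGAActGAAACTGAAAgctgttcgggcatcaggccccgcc
Tgtp2 (chr11:49064213-49064312, minus strand): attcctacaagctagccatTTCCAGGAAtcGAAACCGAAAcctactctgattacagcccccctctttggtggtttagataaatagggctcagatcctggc
Irgm1 (chr11:48871421-48871520, minus strand): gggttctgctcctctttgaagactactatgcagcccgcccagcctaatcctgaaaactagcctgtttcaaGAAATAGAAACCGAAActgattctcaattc
Gbp2 (chr3:142620563-142620662, plus strand): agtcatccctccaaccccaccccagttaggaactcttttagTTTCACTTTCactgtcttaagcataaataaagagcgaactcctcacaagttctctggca
Gbp3 (chr3:142559944-142560043, plus strand): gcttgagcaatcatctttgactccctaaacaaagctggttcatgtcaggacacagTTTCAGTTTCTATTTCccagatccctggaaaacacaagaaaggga
Gbp7 (chr3:142530236-142530335, plus strand): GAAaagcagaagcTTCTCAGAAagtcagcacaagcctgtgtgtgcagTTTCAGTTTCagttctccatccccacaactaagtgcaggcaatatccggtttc
In Irgm2, Igtp and Tgtp2 a gamma-activated site match stood 2 bases upstream of a response element match, at 75, 45 and 81 bases before the RefSeq start. The same spacing of 2 bases was found in Tgtp1, the close copy of Tgtp2. Irgm1 and the first Gbp3 window each held a pair of overlapping response element matches and no gamma-activated site match, and Gbp2 held 1 response element match. In Gbp7 the gamma-activated site matches lay 106 and 87 bases before the start and the response element match 53 bases before it, and in Gbp5 (not printed) the 2 kinds of match were farther apart. Response element matches were in 8 of the 9 windows, against 3.44% of 32841 windows of all genes, gamma-activated site matches in 5 of 9, against 8.30%, and both in 5 of 9, against 0.454%. A match describes the letters and does not show that a factor binds there.

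**Figure D1:**
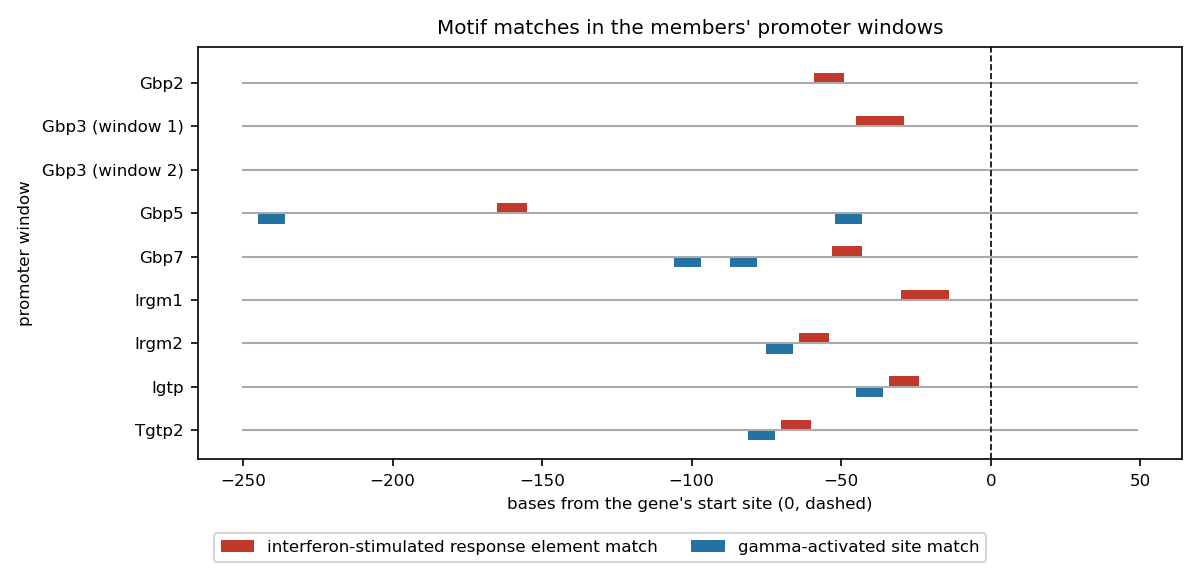
Positions of response element matches (red) and gamma-activated site matches (blue) in the promoter windows of 8 members, in bases from the RefSeq start site. In Irgm2, Igtp and Tgtp2 the matches adjoin with 2 bases between them, and the second Gbp3 window holds none.

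All 10 members were measured in every library, and all 10 were among the 10994 genes tested (FPKM of at least 1 in at least 3 libraries). FPKM scales fragments by transcript length and by the library's mapped fragments, so levels of different genes can be set side by side. In control marrow the regulator Irgm1 was the highest, at 40.2 ± 2.86 FPKM (SD, n = 3), followed by Igtp at 24.9 ± 2.55 and Irgm2 at 23.8 ± 2.13, whose library values overlapped. Gbp7 (14.6 ± 1.31), Gbp2 (11.7 ± 1.71), Gbp3 (10.2 ± 0.940) and Tgtp2 (10.1 ± 2.43) came next, each overlapping its neighbour in this order. Gbp4 stood at 4.11 ± 0.282, above every library of Gbp5 (3.36 ± 0.345), and Iigp1 was the lowest at 2.48 ± 1.19 and overlapped Gbp5. After TBI, Irgm1 (15.8 ± 1.01) was again the highest, and Irgm2 (10.9 ± 1.02) and Igtp (9.44 ± 0.839) again overlapped. Tgtp2 (2.10 ± 0.618) lay below every library of Gbp2 (5.45 ± 0.730) and Gbp3 (5.21 ± 0.590), unlike in control marrow.

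The libraries were marrow by their markers: the summed FPKM of 10 neutrophil markers ran from 22473 to 53191 and that of 10 erythroid markers from 254 to 12229. The number of reads is unknown. Low values gave the FPKM worth of 1 read relative to control replicate 1 as 0.894 to 1.32 in the control and TBI libraries, 1.11 to 1.69 in DEIX and 1.51 to 2.35 in TBI+DEIX, so the TBI+DEIX libraries were the shallowest as a group. One library stands apart. TBI+DEIX replicate 1 was the shallowest of the 12, had the lowest erythroid sum (254), T and NK cell marker sum (82.0), B lineage marker sum (7.93), dendritic cell marker sum (28.9) and monocyte marker sum (851), and was the lowest of all 12 libraries for 7 of the 10 members. The members' tests are therefore given with all libraries and then without that one, and so are the counts of called genes for the comparisons of gene lists that are described.

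Irgm1, the most abundant member, read 38.6, 43.5 and 38.5 FPKM in the control libraries, 15.6, 15.6 and 19.5 in DEIX, 14.7, 16.5 and 16.3 in TBI, and 11.2, 23.1 and 31.3 in TBI+DEIX. Every library of the other 3 groups was below every control library, and the TBI+DEIX libraries straddled the TBI values. Igtp read 23.3, 27.9 and 23.7 FPKM in control, 11.7, 9.46 and 12.4 in DEIX, 8.67, 10.3 and 9.32 in TBI, and 9.44, 19.6 and 25.4 in TBI+DEIX. Here TBI and DEIX libraries were all below control, while TBI+DEIX replicate 3 was inside the control range. Irgm2 read 23.4, 26.1 and 21.9 FPKM in control, 14.1, 9.58 and 18.5 in DEIX, 11.9, 11.1 and 9.86 in TBI, and 7.80, 25.4 and 30.1 in TBI+DEIX. TBI+DEIX replicates 2 and 3 of this regulator were within or above the control range, and replicate 1 was below every TBI library.

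Among the effectors, Tgtp2 read 9.98, 12.6 and 7.78 FPKM in control, 1.84, 2.33 and 2.72 in DEIX, 1.41, 2.61 and 2.29 in TBI, and 1.97, 4.34 and 3.82 in TBI+DEIX. No library of the treated groups reached the lowest control library, and TBI+DEIX replicates 2 and 3 exceeded every TBI and DEIX library. Iigp1 read 2.25, 3.78 and 1.42 FPKM in control, 0.445, 0.499 and 0.435 in DEIX, 0.431, 0.895 and 0.598 in TBI, and 0.156, 2.66 and 1.46 in TBI+DEIX. Relative to its mean it varied most of the members among control libraries and was under 1 FPKM in all TBI and DEIX libraries.

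Of the guanylate-binding protein genes on chromosome 3, Gbp2 read 10.4, 13.6 and 11.2 FPKM in control, 11.4, 6.36 and 10.7 in DEIX, 4.86, 6.27 and 5.22 in TBI, and 2.93, 21.9 and 21.2 in TBI+DEIX. TBI+DEIX replicates 2 and 3 of Gbp2 were above every control library, and replicate 1 was the lowest of all 12. Gbp3 read 10.6, 10.9 and 9.14 FPKM in control, 9.74, 7.83 and 9.90 in DEIX, 5.85, 5.07 and 4.70 in TBI, and 2.96, 5.69 and 6.65 in TBI+DEIX. It was the one member for which TBI+DEIX replicate 2 was inside the TBI range, and its DEIX libraries overlapped control. Gbp5, a guanylate-binding protein known for promoting inflammasome assembly, read 3.44, 3.66 and 2.99 FPKM in control, 3.42, 2.32 and 3.06 in DEIX, 1.45, 1.75 and 1.34 in TBI, and 1.66, 4.04 and 2.91 in TBI+DEIX. Gbp7 read 14.7, 15.9 and 13.2 FPKM in control, 8.82, 7.41 and 9.63 in DEIX, 8.65, 9.15 and 7.59 in TBI, and 6.21, 13.3 and 15.3 in TBI+DEIX. Gbp5 in DEIX overlapped control, whereas Gbp7 in DEIX was wholly below it. Gbp4, of the chromosome 5 cluster, read 4.19, 4.34 and 3.79 FPKM in control, 1.05, 1.74 and 1.77 in DEIX, 1.07, 1.84 and 1.56 in TBI, and 0.948, 3.00 and 2.99 in TBI+DEIX, with every treated library below every control library.

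**Figure D2:**
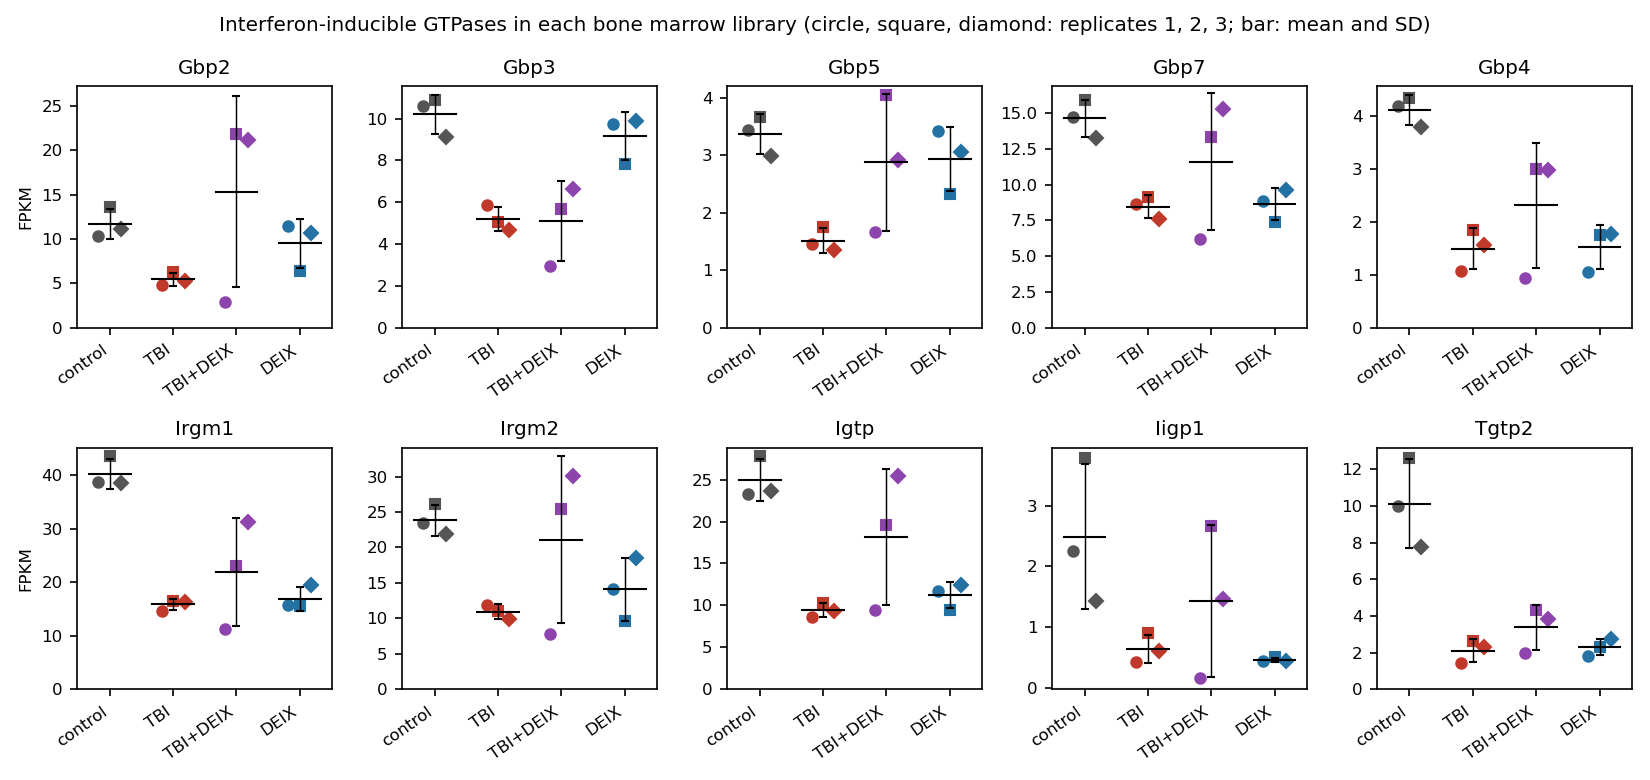
FPKM of each member in the 12 libraries, by group, with the group mean (horizontal bar) and SD (n = 3). All 3 TBI libraries are below all 3 control libraries in each panel, and TBI+DEIX replicate 1 (circle) is far from replicates 2 and 3 in most panels.

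Irradiation with vehicle was compared with control as log2(FPKM + 1), on which changes of genes with low values come out too small. All 10 members were wholly lower, meaning that each TBI library was below each control library; 16.3% of all tested genes were. The median member changed by -1.04, against 0.05 for all genes tested. By limma with Benjamini-Hochberg adjustment over all tested genes, 5 members fell, where 3.1% of the genes tested were called lower. They were the effector Tgtp2 (log2 change -1.84 ± 0.24 SE, adjusted p = 0.00202), the regulators Igtp (-1.31 ± 0.27, adjusted p = 0.0204) and Irgm1 (-1.29 ± 0.27, adjusted p = 0.0232), Gbp4 (-1.05 ± 0.25, adjusted p = 0.0448) and Gbp3 (-0.85 ± 0.21, adjusted p = 0.0453). Values of the other 5 ran from -1.05 for Irgm2 to -0.72 for Gbp7, with Gbp2 at -0.98, Iigp1 at -1.04 and Gbp5 at -0.80, and their adjusted p ran from 0.0552 for Gbp5 to 0.368 for Gbp2.

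The 5 comparisons share one estimate of spread from all 12 libraries, so TBI+DEIX replicate 1 enters this one through the spread. Without that library all 10 members were called lower after TBI, where 7.2% of genes were. Leaving out any one control or TBI library kept 1 call, that of Tgtp2, where 153 to 259 of all 10994 genes were called in either direction. Leaving out any one DEIX library kept 3, where 322 to 450 genes were called.

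DEIX without irradiation was set against the same control libraries, so this comparison is not independent of the one above. Tgtp2 fell by 1.74 ± 0.24 (adjusted p = 0.00447), Irgm1 by 1.21 ± 0.27 (adjusted p = 0.0267), Igtp by 1.09 ± 0.27 (adjusted p = 0.0344) and Gbp4 by 1.03 ± 0.25 (adjusted p = 0.0353), by limma on the log2 scale. These are 4 of the 10 members, where 2.72% of genes tested were called lower. The libraries of 7 members were wholly lower, against 17.2% of all genes, and the median member change was -0.89, against 0.02. Gbp2 (-0.31, 95% interval -1.48 to 0.87), Gbp3 (-0.15, -0.60 to 0.31) and Gbp5 (-0.16, -0.60 to 0.29) overlapped control. Without TBI+DEIX replicate 1, 7 members were called lower, where 8.48% of genes were, and those 3 were again not called. Leaving out any one control library, or DEIX replicate 1 or 3, kept 1 call, where 146 to 218 of all 10994 genes were called in either direction. Leaving out TBI replicate 2 kept 2, where 449 genes were called.

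TBI+DEIX against the same control libraries called 3 members lower, where 13.1% of genes tested were. Tgtp2 fell by 1.37 ± 0.24 (adjusted p = 0.0023), Irgm1 by 0.96 ± 0.27 (adjusted p = 0.0212) and Gbp3 by 0.93 ± 0.21 (adjusted p = 0.0074), by limma. The libraries of 4 members were wholly lower, against 21.1% of genes, and the median change was -0.58, against 0.02. Without replicate 1 of TBI+DEIX the same 3 members were called lower, where 15.3% of genes were, with Tgtp2 at -1.11, Irgm1 at -0.56 and Gbp3 at -0.64. Gbp2, at -0.01 with all libraries, was then called higher at 0.83 ± 0.20 (adjusted p = 0.00887, limma), as were 2547 of the 10994 genes tested. That fit leaves out the lowest Gbp2 value, and the median of the 10 members in it was -0.15. The call of Irgm1 was lost without any one control library and with the compared groups alone (adjusted p = 0.0935, limma), which left 2 calls. Of the 10994 genes, 2004 to 2299 were called in either direction without a control library, and 2181 with the compared groups alone. Without replicate 2 or replicate 3 of TBI+DEIX 5 members were called lower, where 3139 and 2676 genes were called in either direction.

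**Figure D3:**
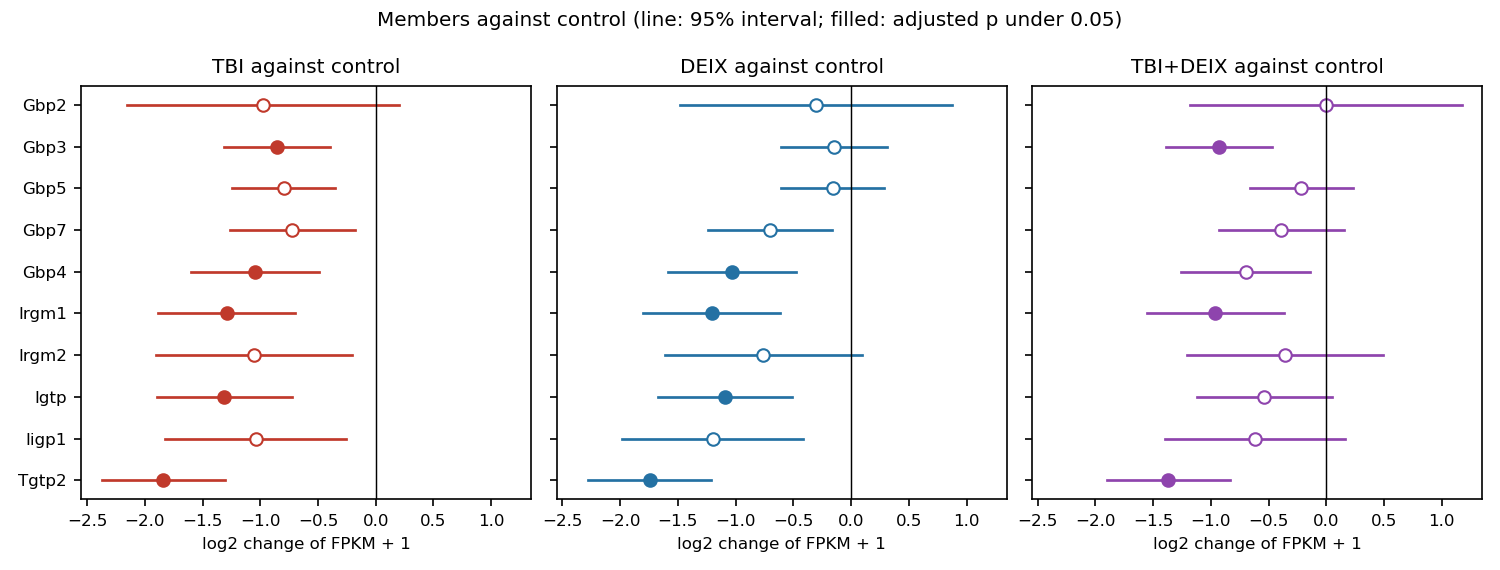
Log2 change of FPKM + 1 of each member against control in TBI, DEIX and TBI+DEIX mice, with 95% intervals from limma over 12 libraries; filled points passed an adjusted p of 0.05. In TBI the interval of Gbp2 alone spans 0, in DEIX those of Gbp2, Gbp3, Gbp5 and Irgm2 do, and the 3 panels share their control libraries.

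Adding DEIX to irradiation was compared with irradiation and vehicle, to ask whether DEIX changed the members in irradiated mice. No member was called by limma, where 8.1% of genes tested were called in either direction, and 2 members, Igtp (0.78 ± 0.27 SE) and Gbp5 (0.58 ± 0.20 SE), passed 0.05 before adjustment, as did 2986 of all 10994 genes, a larger share than among the members. The median change was 0.45, against 0.00 for all genes, and no member had libraries wholly higher, where 14.5% of genes had. Replicate 1 of TBI+DEIX was below every TBI library for 7 members, whereas replicate 2 was above every TBI library for 9 members and replicate 3 for all 10.

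Replicate 1 stood apart in the members' own values as well as in depth and markers, and leaving out a library with low member values raises the TBI+DEIX mean, so the values without it are a description of how far they rest on it. Without replicate 1, limma called 9 members higher in TBI+DEIX than in TBI, where 16.2% of genes were called higher. In this fit Gbp2 had the largest value, 1.81 ± 0.20 (adjusted p = 0.00212). The regulators Irgm2 (1.26 ± 0.21, adjusted p = 0.00496), Igtp (1.16 ± 0.14, adjusted p = 0.00226) and Irgm1 (0.73 ± 0.14, adjusted p = 0.00767) were called, and so were the effectors Iigp1 (0.88 ± 0.26, adjusted p = 0.0312) and Tgtp2 (0.73 ± 0.21, adjusted p = 0.0291). Gbp5 stood at 0.82 ± 0.15, Gbp7 at 0.69 ± 0.12 and Gbp4 at 0.69 ± 0.16, while Gbp3, not called, stood at 0.21 ± 0.13 (adjusted p = 0.239). The TBI+DEIX mean then rests on 2 libraries, and 11 of the 12 fits that leave out a library called no member; the exception is the one without replicate 1.

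The interaction asks whether DEIX changed a gene differently in irradiated and unirradiated mice; its value is the DEIX effect after TBI minus the DEIX effect without TBI. Tgtp2 had the one called interaction, at 2.21 ± 0.34 (adjusted p = 0.0285, limma), where 0.191% of genes tested were called higher. It fell with DEIX in unirradiated mice and read 0.47 ± 0.24 higher with DEIX after irradiation, a change that was not called (adjusted p = 0.24, limma). All 10 members had positive values, from 0.07 for Gbp3 to 2.21 for Tgtp2, with a median of 1.42, against -0.02 for all genes. This was not particular to them. All 11 other tested genes of the families and their relatives were positive, with a median of 0.64. So were all 13 tested genes of other functions that interferon gamma induces, with a median of 0.99, and no gene of these lists was called. Lymphocyte markers had positive values too: 12 of 12 B lineage markers, with a median of 1.19, and 14 of 15 T and NK cell markers, with a median of 0.73, none of them called. All 10 erythroid markers were negative, with a median of -2.30, and so were 8 of 12 monocyte and macrophage markers, with a list median of -0.31. Among the other 4, C1qa, a macrophage complement gene, had a called positive value (2.52 ± 0.33, adjusted p = 0.0142, limma). The part of these markers in the members' interaction was not tested. Without TBI+DEIX replicate 1, 9 members were called, where 2.57% of genes were called higher. Igtp was then at 2.25 ± 0.19, Gbp2 at 2.12 ± 0.27 and Irgm1 at 1.94 ± 0.18, and Gbp3 at 0.35 ± 0.17 was the one not called (adjusted p = 0.288). In the same fit 8 of the 15 T and NK cell markers (median 0.97) and 2 of the 12 B lineage markers (median 1.92) were called higher. The erythroid median was -1.54 with all 10 again negative. Of the 12 monocyte and macrophage markers 7 were then positive (median 0.27), with 1 called higher and 1 lower. Called higher were also 5 of the 11 other family genes (median 1.10) and 6 of the 13 other genes that interferon gamma induces (median 0.82). Leaving out any other library lost the call of Tgtp2.

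**Figure D4:**
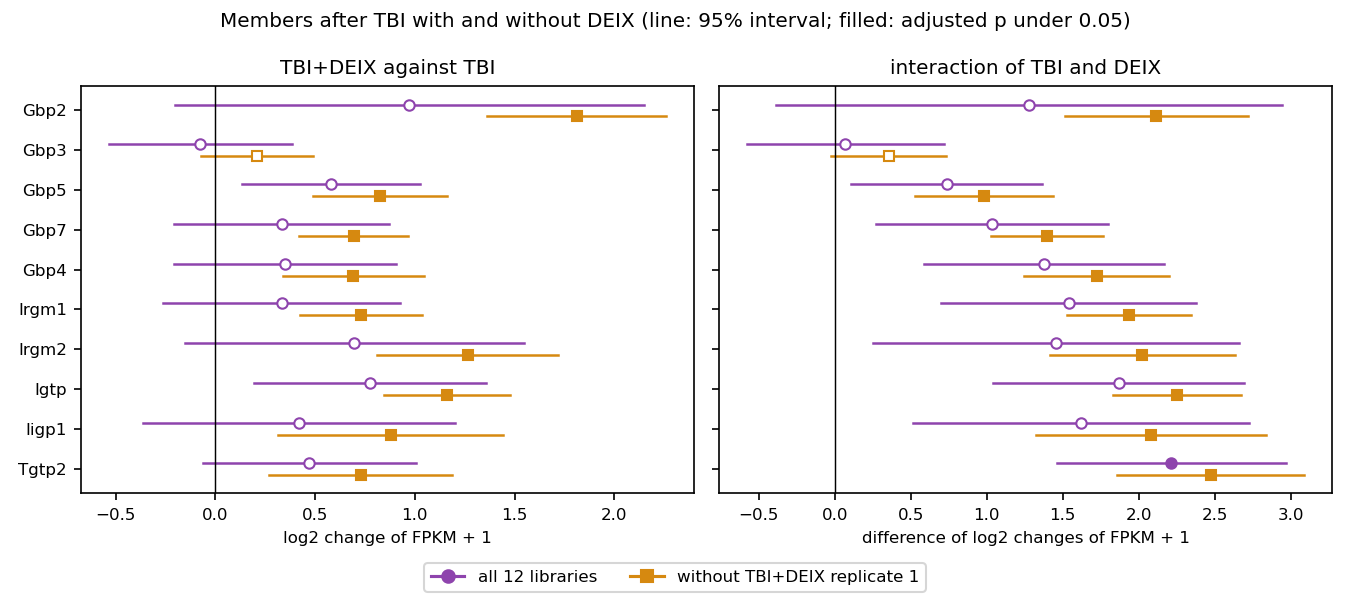
Members in TBI+DEIX against TBI (left) and the interaction of TBI and DEIX (right), as log2 change of FPKM + 1 with 95% intervals, from all 12 libraries (circles) and without TBI+DEIX replicate 1 (squares); filled points passed an adjusted p of 0.05. With all libraries 1 point is filled, Tgtp2 in the interaction, and without that replicate every member but Gbp3 is filled in both panels.

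The members varied together from library to library. Over the 12 libraries the 45 pairs of members had a median Pearson r of 0.81, from 0.45 for Gbp3 and Iigp1 to 0.97 for Gbp7 and Irgm2. After group means were removed, the median was 0.82, and the lowest pair was Gbp3 and Tgtp2 at 0.58. The points share libraries, and TBI+DEIX replicate 1 lies far from its group in them, so these values describe the set and carry no test. Outside the families, the genes whose pattern was nearest to the mean of the members were Ifit1, Trim30d, Parp9, Ifit3b, Trim21, Parp12, Parp14, Rnf213, Ifit3 and Irf7, with r from 0.961 to 0.973 over 12 libraries. Ifit3b averaged 18.7 FPKM in control, 2.17 in DEIX, 1.44 in TBI and 5.95 in TBI+DEIX. On deviations from group means the nearest were LTO1, Oasl2, Il18, Rtp4, Pea15a, Trim30d, Dynll1, Tnfsf13b, Arl3 and Ifi27l2a, and Trim30d was the one gene in both sets.

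Ifng, the ligand gene, read 0.430, 0.807 and 0.350 FPKM in control, 0.118, 0.158 and 0.245 in DEIX, 0.160, 0.149 and 0.0867 in TBI, and 0.0569, 0.679 and 0.319 in TBI+DEIX, and was too low to be tested. Its TBI libraries were all below control, and TBI+DEIX replicates 2 and 3 were above every TBI library. The type I and III ligands Ifnb1, Ifna2, Ifna4 and Ifnl2 were listed at 0 in all 12 libraries. Ifngr1, a chain of the interferon gamma receptor, rose in DEIX mice by 0.62 ± 0.15 (adjusted p = 0.0328, limma), opposite in sign to the members. In all, 6 receptor genes were tested: none was called after TBI, and Il10rb rose in TBI+DEIX against TBI, at 0.50 (adjusted p = 0.0196). With TBI+DEIX replicate 1 left out, 1 of the 6 was called higher after TBI, 3 with DEIX and 3 in TBI+DEIX against TBI.

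Irf1, a factor that interferon gamma induces and that binds response elements, read 46.9, 53.9 and 53.1 FPKM in control, 37.7, 33.4 and 45.6 in DEIX, 37.7, 37.9 and 40.1 in TBI, and 25.8, 64.4 and 59.9 in TBI+DEIX. TBI and DEIX libraries were wholly below control, and replicate 1 of TBI+DEIX was the lowest of the 12. The log2 change of Irf1 stood at -0.40 ± 0.27 after TBI and -0.40 ± 0.27 with DEIX, neither called. Of 11 tested kinases and factors, 1 fell after TBI: Nlrc5, the activator of MHC class I genes, at -1.26 ± 0.21 (adjusted p = 0.00721). Nlrc5 also fell with DEIX (-0.79, adjusted p = 0.0454), where Jak1 rose (0.37, adjusted p = 0.0457). Irf8, a factor of monocyte and dendritic cell development, fell in TBI+DEIX against TBI (-1.03 ± 0.22, adjusted p = 0.024), whereas no member was called there. The list's median change was -0.59 after TBI and 0.26 in TBI+DEIX against TBI. Without TBI+DEIX replicate 1, 7 of the 11 were called lower after TBI, and 6 were called lower and 2 higher with DEIX. In that fit 8 were called higher in TBI+DEIX than in TBI, among them Irf7 (1.32) and Irf1 (0.67), and Irf8 was still called lower (-0.73).

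Socs1, the main brake on interferon gamma signalling and itself interferon-induced, read 3.30, 3.49 and 4.76 FPKM in control, 2.05, 1.70 and 1.42 in DEIX, 1.22, 1.72 and 1.47 in TBI, and 2.90, 3.11 and 2.89 in TBI+DEIX. Its 3 TBI+DEIX libraries, replicate 1 included, were above every TBI library. Socs1 fell after TBI (-0.97 ± 0.14, adjusted p = 0.00321) and with DEIX (-0.83 ± 0.14, adjusted p = 0.00819), rose in TBI+DEIX against TBI (0.69 ± 0.14, adjusted p = 0.0203), and had a called interaction of 1.52 ± 0.20 (adjusted p = 0.0142). Of 8 feedback inhibitors, Socs1 was the one called after TBI with all libraries. Socs3, which acts mainly on cytokine receptors that signal through Stat3, rose with DEIX in both settings, by 1.36 without TBI (adjusted p = 0.00753) and by 1.98 after it (adjusted p = 0.00411). Ptpn1 rose with it, by 0.91 and 0.78. Usp18, which restrains type I interferon signalling, read 20.0, 25.2 and 24.8 FPKM in control and 3.52, 5.06 and 4.14 in TBI, wholly lower. Its log2 change after TBI, -2.22 ± 0.58, was the largest of the 8 and was not called (adjusted p = 0.0624), and it fell with DEIX (-2.36, adjusted p = 0.0354). Without TBI+DEIX replicate 1, Usp18 and Socs1 were both called lower after TBI, and 5 of the 8 were called higher in TBI+DEIX against TBI, where 3 were with all libraries. In that fit 2 of the 8 were called higher and 2 lower with DEIX, and 2 had a called positive interaction.

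**Figure D5:**
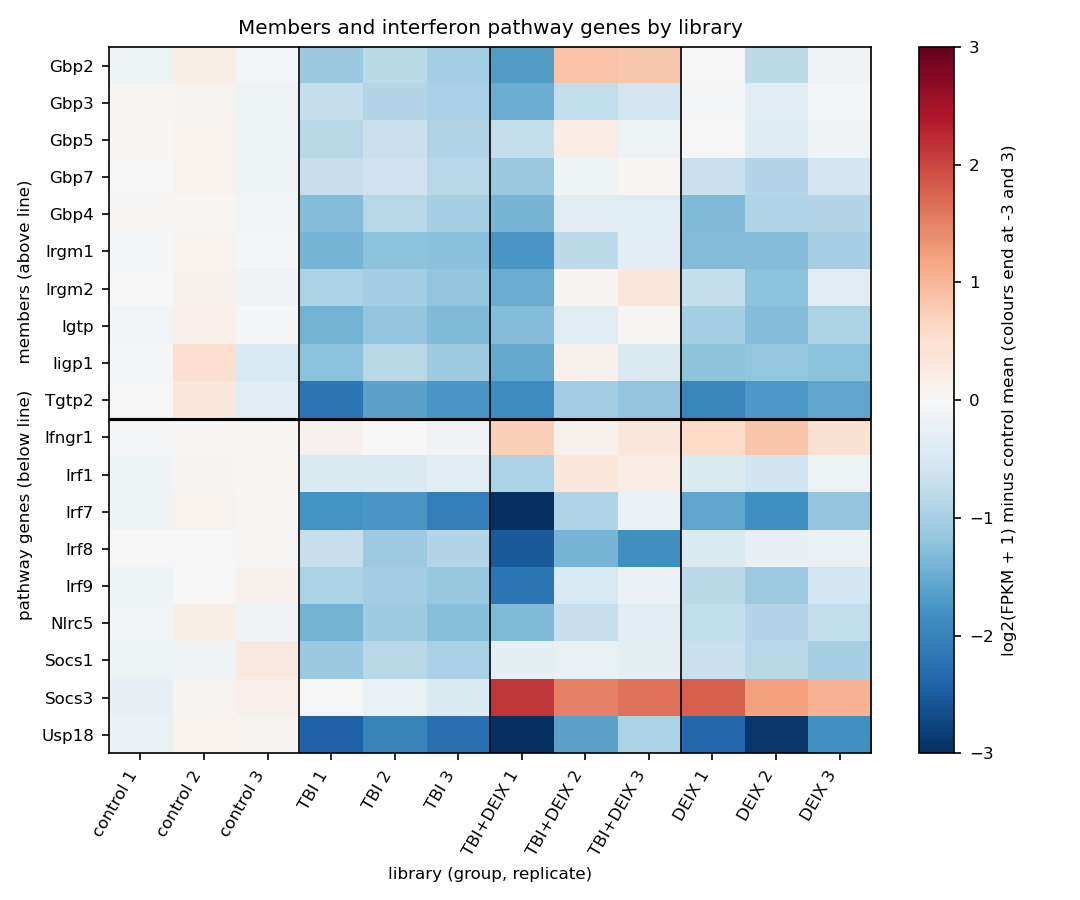
Log2(FPKM + 1) minus the control mean in each library for the 10 members (above the line) and 9 interferon pathway genes (below it); blue is below and red above the control mean. TBI+DEIX replicate 1 is blue for the members and for Irf1, Irf7, Irf9 and Usp18, and Socs1 in that library is near its other TBI+DEIX values.

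Of the other genes of the 2 families and their relatives, 11 were tested. After TBI 3 fell, namely Ifi47 (-1.26 ± 0.21, adjusted p = 0.00725), Gbp6 (-1.26 ± 0.22, adjusted p = 0.00871) and Tgtp1 (-0.84 ± 0.20, adjusted p = 0.0395), and 10 of 11 were wholly lower; the median was -0.84. Ifi47, an immunity-related GTPase that is more abundant than any member in control marrow, read 44.5, 51.2 and 45.9 FPKM in control and 19.2 ± 1.79 (SD, n = 3) in TBI. With DEIX 4 fell: Ifi47 (-0.99), Gbp6 (-1.16), Gbp9 (-1.43, adjusted p = 0.0499) and Tgtp1 (-0.81). None was called in TBI+DEIX against TBI with all libraries (median 0.13). Without TBI+DEIX replicate 1, 9 of the 11 were called lower after TBI, 7 lower with DEIX, and 5 higher in TBI+DEIX than in TBI (median 0.52). By contrast, none of 7 tested dynamin-type and atlastin-type GTPases that are not interferon-induced fell in TBI or DEIX; their median changes were 0.24 and 0.15, and Dnm2 rose with DEIX (0.42, adjusted p = 0.0288) and was the one called in TBI+DEIX against TBI (0.39, adjusted p = 0.034), where the median was 0.08. Without that replicate again none fell in TBI or DEIX, 1 was called higher after TBI and 2 with DEIX, and in TBI+DEIX against TBI 2 were called higher and 2 lower, with a median of -0.24. Whether the lists differ from each other was not tested.

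Of 15 genes for targeting vacuoles and for autophagy, with which the members work, Trim21 fell after TBI (-0.65, adjusted p = 0.0307), and the median was 0.06. With TBI+DEIX replicate 1 left out, Trim21 was again the one called lower after TBI, and 8 genes were called higher in TBI+DEIX than in TBI, where none was with all libraries. Of 11 inflammasome and pyroptosis genes, none was called after TBI with all libraries (median -0.32), and Casp4, the sensor caspase for cytosolic lipopolysaccharide, rose in TBI+DEIX against TBI (0.99, adjusted p = 0.0199). Without that replicate, 3 of the 11 were called lower after TBI and 6 higher in TBI+DEIX than in TBI. Among 13 tested genes of other functions that interferon gamma induces, 3 fell after TBI: Serpina3g (-1.07, adjusted p = 0.0205), the peptide transporter gene Tap1 (-0.92, adjusted p = 0.0123) and Cd274, which encodes PD-L1 (-0.91, adjusted p = 0.0285). In TBI+DEIX against TBI, 4 of these 13 rose: Serpina3g (1.53), Serpina3f (1.32), Fcgr4 (1.05) and Cd274 (1.03). In all 4 genes the rise was called with replicate 1 in the fit, which was not so for any member. Without it, 8 of the 13 were called lower after TBI and 7 higher in TBI+DEIX than in TBI.

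Cell type markers moved with these groups. The summed FPKM of 15 markers of T and NK cells, which are the main sources of interferon gamma, was 230 to 304 in control, 191 to 235 in DEIX, 130 to 175 in TBI and 82.0 to 222 in TBI+DEIX, and none of the 15 was at 0 in any library. After TBI 4 of the 15 fell (Cd4, Klrb1c, Gzma and Prf1), with a median of -0.81, and without TBI+DEIX replicate 1, 14 of the 15 were called lower. With DEIX all 15 had negative values, with a median of -0.52. Of these 1 was called with all libraries and 7 without that replicate. In TBI+DEIX against TBI none of the 15 was called with all libraries (median 0.16), and 10 were called higher without that replicate (median 0.48). B lineage sums were 523 to 656 in control, 75.9 to 116 in DEIX, 28.6 to 349 in TBI and 7.93 to 193 in TBI+DEIX, and Fcmr was at 0 in a TBI+DEIX library. With DEIX 3 of the 12 B lineage markers fell, and all 12 were called lower without TBI+DEIX replicate 1. Dendritic cell sums were 284 to 342 in control, 107 to 129 in DEIX, 78.6 to 105 in TBI and 28.9 to 93.1 in TBI+DEIX. After TBI 3 of 9 dendritic cell markers fell, and 6 were called lower without TBI+DEIX replicate 1; in TBI+DEIX against TBI the counts were 2 and 4 lower. Monocyte and macrophage sums were 2105 to 2147 in control, 2308 to 2761 in DEIX, 1394 to 2216 in TBI and 851 to 2804 in TBI+DEIX. Of 12 such markers, 1 fell after TBI in either fit, and in TBI+DEIX against TBI 1 rose with all libraries and 3 were called higher without that replicate. Neutrophil marker sums were 23617 to 32940 in control, 27981 to 39194 in DEIX and 26585 to 33830 in TBI. In TBI+DEIX they were 22473 in replicate 1, 53191 in replicate 2 and 51351 in replicate 3. The members' summed FPKM in those libraries was 45.2, 123 and 141. In control the members' sum was 134 to 162, and in TBI it was 58.8 to 65.6. Erythroid sums were 4781 to 7870 in control, 1909 to 11327 in DEIX, 2485 to 12229 in TBI and 254 to 2235 in TBI+DEIX. In TBI+DEIX against TBI all 10 erythroid markers were wholly lower, with a median of -2.72, and 3 were called; without replicate 1 the median was -2.20 and 4 were called. In that fit 6 of the 10 neutrophil markers were called higher in TBI+DEIX than in TBI, where none was with all libraries. The part of these markers in the members' values was not tested, and in whole marrow fewer cells of a type and less RNA per cell cannot be told apart.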

How the data were processed

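Total RNA of whole bone marrow was made into libraries with a directional MGI kit, per the labels' protocols. STAR 2.6, Cufflinks 2.2.1 and the build mm10 are named in the submitters' processing notes without role or order. The authors deposited FPKM for 21853 genes in 12 libraries; all identifiers matched GENCODE M21. FPKM holds no counts, so the number of reads is unknown and no count model was used; relative depth came from the steps between low values.

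Values were analysed as log2(FPKM + 1). Genes with FPKM of at least 1 in at least 3 libraries (10994) entered limma 3.58.1 (R 4.3.3; eBayes with trend) as 4 group means, with 5 contrasts; calls needed an adjusted p below 0.05 (Benjamini-Hochberg, all genes tested). The script was tested on simulated data. Members and lists were chosen with earlier results of these data known. All 10 members were named; of other lists, the called genes and at most the 3 highest, plus Irf1, Ifng, Socs1 and 1 gene that is not reported here, though not every such gene is printed; the pathway genes plotted were chosen after their values were seen. Similar patterns were ranked by Pearson r among genes averaging at least 5 FPKM. Transcripts were compared with blastn 2.17.0. A planned comparison of protein sequences was not run, and expression of Gbp11, Gm12250, Mx2 and Trac was not analysed here. Nothing says that replicates were separate animals, so p-values measure the spread between these libraries. No batch or date is given.

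Alternatives were a pseudocount of 0.1, no filter, a mean FPKM of at least 5, fits on the compared groups, TPM and size-factor scaling, no trend, array weights, a replicate block and each library left out. TPM scaling without S100a8, S100a9 and Ngp, which are listed at 0 in some libraries, was chosen after seeing the data.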

Additional observations from a re-analysis of the deposited data

Results flagged for a closer look

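The effect of DEIX on Tgtp2 differed between irradiated and unirradiated mice by the interaction test. The difference of log2 changes was 2.21 ± 0.34 (adjusted p = 0.0285, limma). The change with DEIX was -1.74 ± 0.24 without irradiation and 0.47 ± 0.24 after it, the latter not called (adjusted p = 0.24, limma). Mean FPKM of Tgtp2 was 10.1 in control, 2.29 in DEIX, 2.10 in TBI and 3.38 in TBI+DEIX. The call of the interaction was lost with a pseudocount of 0.1, with no filter and in 11 of the 12 fits that leave out a library. It held in 7 of the 20 alternatives that could test it, and its adjusted p over them (limma) ran from 0.000357 to 0.115. No other member passed that test with all 12 libraries, and the adjusted p of the next, Igtp, was 0.109.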

How the results depend on the processing

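Counts of called members moved with the settings, and the cause was not tested. After TBI, 5 members were called, but 3 with a pseudocount of 0.1, 3 with no filter, 2 of 6 with a mean FPKM of at least 5, and 10 with the compared groups alone or with array weights; with a library left out the count ran from 1 to 10. Of all 10994 genes tested, the main fit called 439 in either direction after TBI. The compared groups alone called 1417, array weights 4218, and fits with a library left out 153 to 1337. The members' median of -1.04 was -1.23 with a pseudocount of 0.1. In TBI+DEIX against TBI the count of 0 became 9 with array weights and ran from 0 to 9 with a library left out. Of all 10994 genes, 891 were called there by the main fit, 4488 with array weights and 5 to 2836 with a library left out. For DEIX against control, 4 became 2 with no filter, 2 of 6 with a mean FPKM of at least 5 (Tgtp2 and Gbp4 were then not tested, and Irgm1 and Igtp kept their calls), 7 with the compared groups alone and 7 with array weights, and ran from 1 to 7. Of all genes, 796 were called there by the main fit, 2057 with the compared groups alone and 4508 with array weights. With a library left out, 146 to 2394 were. The members' median of -0.89 was -0.73 with the stricter filter and -1.09 on the TPM scale, and ran from -1.04 to -0.80. For TBI+DEIX against control, 3 became 5 on the TPM scale and 5 on that scale without S100a8, S100a9 and Ngp. It became 6 with array weights (5 lower, and Gbp2 higher) and ran from 2 to 5 with a library left out. Of all 10994 genes, the main fit called 3299 there, the TPM scale 1785 and array weights 6187. On the TPM scale without those 3 genes 2552 were called, and 2004 to 4232 with a library left out. For the interaction, 1 became 0 with a pseudocount of 0.1, 0 with no filter, 0 with the stricter filter, which leaves Tgtp2 untested, 3 on the TPM scale, 2 on that scale without those 3 genes and 9 with array weights, and ran from 0 to 9. Of all genes, the main fit called 22 interactions, the TPM scale 28, that scale without those 3 genes 26 and array weights 532. With a library left out, 4 to 331 were called. The members' median interaction of 1.42 was 1.90 with array weights and ran from 1.16 to 1.98. Gbp2 in TBI+DEIX against control turned from -0.01 to 0.62 with array weights and, with a library left out, ran from -0.44 to 0.83, the last without TBI+DEIX replicate 1. Array weights gave TBI+DEIX replicate 1 a weight of 0.0709. With a replicate block, 4, 0, 5, 4 and 1 members were called in TBI, TBI+DEIX against TBI, DEIX, TBI+DEIX and the interaction. In the same order, 378, 474, 640, 3000 and 20 of all genes were. Same-numbered libraries correlated at -0.447 to 0.242. Libraries of different numbers were not compared, so these values cannot settle whether the numbers pair them. Tgtp2 was called after TBI in all 21 alternatives that could test it.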
